A study of Homo sapiens with 2 samples.

Results

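The ERBB receptors and their EGF-family ligands were followed across CD90+ and CD90- cells of KYSE-140, an established human esophageal squamous carcinoma line. Members were every probe set that the platform annotation gives to EGFR, ERBB2, ERBB3, AREG, EREG, TGFA, HBEGF, BTC, EPGN or NRG1. The annotation used here named 34 probe sets, of 54675 on the array, for 8 of these 10 genes, among 19775 named genes in all. It named no probe set for AREG or EPGN, which were not analysed here.

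Both populations came from the same line, without a treatment given in the labels. Cells were separated by flow cytometry on CD90, the surface glycoprotein that THY1 encodes, and total RNA of each fraction went onto 1 Affymetrix U133 Plus 2.0 array. There was thus 1 CD90+ sample and 1 CD90- sample, so no value below has a replicate error and no test between the populations could be made. Each fold describes these 2 RNA samples only, with a precision limited by there being 2 arrays. In sorted bulk RNA, fewer cells that make a transcript and less of it per cell cannot be told apart. The study asks how the CD90+ cells of this line differ in transcript levels from the CD90- cells.

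ERBB receptors are receptor tyrosine kinases of the cell surface that work in pairs: a bound ligand lets 2 receptors join, and the pair then signals through the RAS-ERK, PI3K-AKT and STAT pathways. The ligands are made as membrane-anchored precursors and are released by ADAM proteases. They differ in the receptors they bind: TGFA, AREG and EPGN bind EGFR, HBEGF, BTC and EREG bind EGFR and ERBB4, and NRG1 binds ERBB3 and ERBB4. ERBB2 has no known soluble ligand and serves as a partner for the other receptors, while ERBB3 has little kinase activity of its own. EGFR is often abundant in squamous epithelium and in the carcinomas that arise from it.

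Signals are MAS5 intensities on a linear scale. A probe set was called measured if it reached a floor of 71.6 on at least 1 array, and signals under the floor were set to it, and a fold whose lower side lay beneath it is therefore a minimum. The floor is the middle signal of the arrays, the geometric mean of their 2 medians. A gene was represented by its probe set of highest mean signal. The suffix _x_at marks probe sets prone to cross-hybridisation and _s_at those that match several transcripts. Of the 34 probe sets 19 were measured, and 15 did not reach the floor on either array. The signals of different probe sets are not compared with each other, since each has its own response.

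The arrays had the same trimmed mean of 499.9. THY1, the gene of the sorted protein, read 293 in CD90+ and 78.9 in CD90- cells, 3.72-fold higher. Of the 6 squamous epithelial markers listed, 5 were measured, and TP63 had no named probe set. KRT14 (log2 ratio, CD90+ over CD90-, 0.52), CDH1 (0.13) and KRT5 (0.011) were above 0. EPCAM (-0.098) and SOX2 (-0.23) were below 0. None of the 6 fibroblast markers was measured, COL1A2, COL3A1, DCN, LUM, PDGFRB and FAP all being under the floor on both arrays. The 4 leukocyte markers with a named probe set (PTPRC, CD3E, CD14 and LYZ) were likewise under it. Of 5 endothelial markers only PECAM1 was measured, at 98.5 against 70.9.

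**Figure D1:**
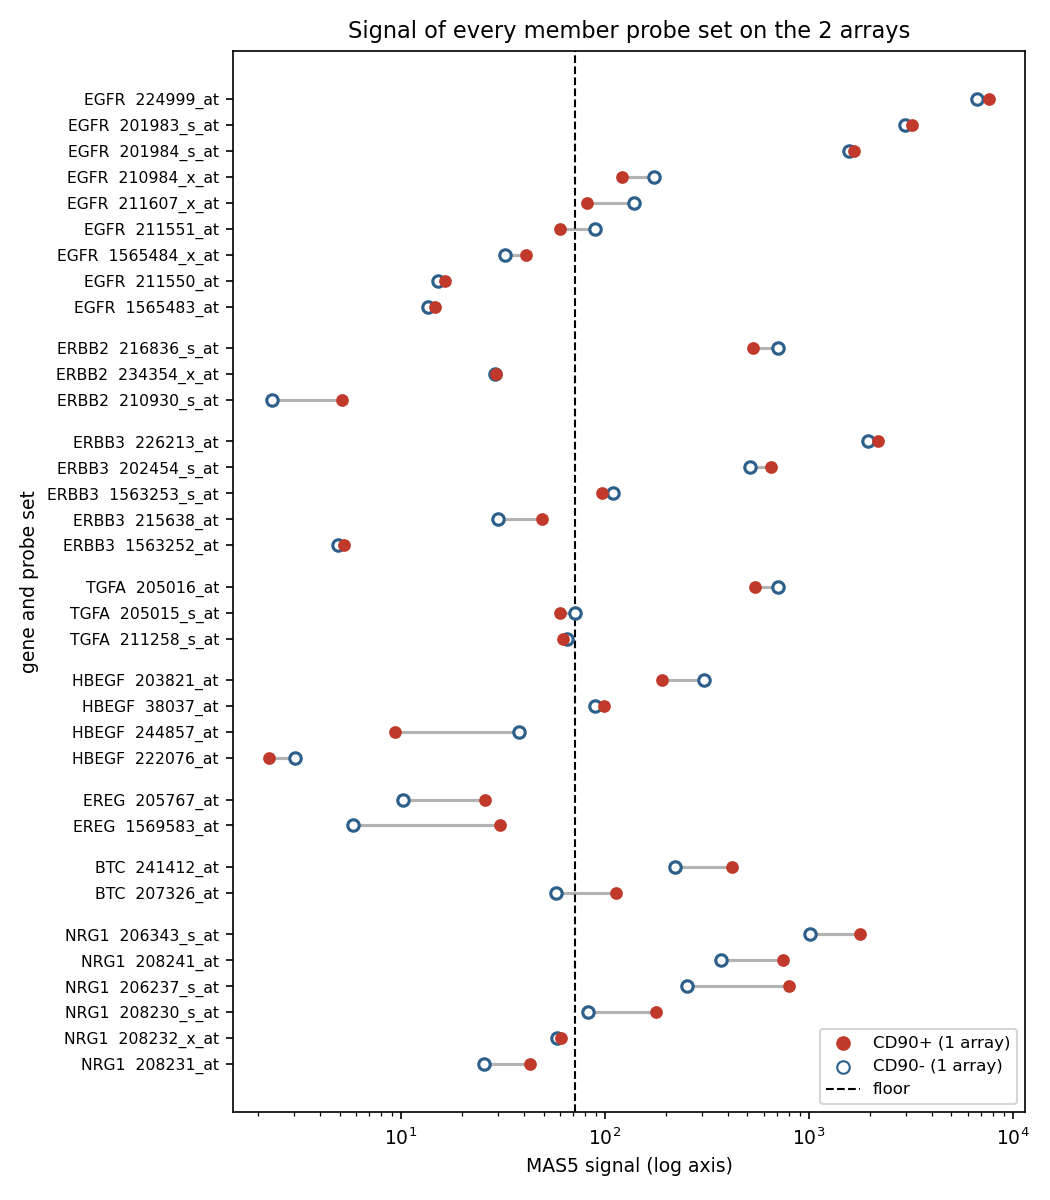
MAS5 signal (log axis) of each of the 34 probe sets, by gene, in CD90+ cells (filled red) and CD90- cells (open blue), 1 array each; the dashed line is the floor of 71.6. The NRG1 and BTC pairs above the floor have the red point to the right, and the EREG pairs lie wholly to the left of the floor.

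No member passed a 2-fold difference in the probe set that stands for it. By that measure 0 of 7 measured members lay 2-fold or more above, and 0 lay 2-fold or more below, their CD90- level. Over all 12466 measured genes 2.47% were higher and 1.75% lower by that much, so 0 of 7 is close to what the array as a whole shows. The members' median log2 ratio, CD90+ over CD90-, was 0.16 against 0.010 over all measured genes. At a threshold of 1.5-fold 2 members were higher, BTC and NRG1, and 1 was lower, HBEGF. The shares of all measured genes past 1.5-fold were 7.37% higher and 6.76% lower. Counted by probe set, 3 of the 19 measured were at least 2-fold higher, all 3 of NRG1, and 0 were lower. The shares over all measured probe sets with 1 symbol were 1.98% and 1.56%.

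The receptors differed little between the fractions. EGFR, the receptor of EGF and TGFA, read 7673 in CD90+ and 6675 in CD90- cells on the probe set that stands for it, a 1.15-fold difference. The next brightest of its probe sets read 3203 against 2951, 1.09-fold, and the one after that 1660 against 1580, 1.05-fold. These 3 probe sets, each over 16 times the floor on both arrays, put the receptor slightly higher in CD90+ cells. The other 3 measured EGFR probe sets were dimmer and went the other way. An _x_at probe set read 122 against 173, which is 1.43-fold lower in CD90+ cells, and another 82.1 against 138, 1.68-fold lower. The sixth read 60.0 against 88.9, at least 1.24-fold lower. The log2 ratios of the 6 thus ran from -0.75 to 0.20 with an SD of 0.39, where the median SD over the 115 genes with 6 measured probe sets was 0.25. Another 3 EGFR probe sets were under the floor on both arrays, with signals from 13.5 to 41.1.

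ERBB2, the ligandless partner receptor, was read by 1 measured probe set, at 534 in CD90+ and 709 in CD90- cells, 1.33-fold lower in CD90+. Its other probe sets stayed under the floor, at 29.2 against 29.0 and 5.17 against 2.33. ERBB3, the neuregulin receptor, read 2190 in CD90+ and 1960 in CD90- cells, 1.12-fold higher. A second ERBB3 probe set read 649 against 515, 1.26-fold higher, and the dimmest measured 97.3 against 109, which is 1.12-fold lower in CD90+ cells. As with EGFR, the brighter probe sets were above 1 and a dim one below 1. ERBB4, the fourth receptor and no member here, was under the floor on both arrays, at 25.8 and 18.6.

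The receptor ratios are of the size by which probe sets of one gene differ on these arrays. The pooled SD of log2 ratios among measured probe sets of a gene was 0.31 over the 6188 genes with more than 1. It was 0.42 for genes whose brightest probe set lay below 4 times the floor, 0.33 for those between 4 and 16 times, and 0.27 for the rest. This spread covers array noise and differences in what the probes match, not the spread between sorts. The ratios of EGFR (0.20) and ERBB3 (0.16) were smaller than it, and that of ERBB2 (-0.41) somewhat larger than the value of its own signal class, 0.33.

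By representative probe set BTC and NRG1 were the ligands higher in CD90+ cells, at log2 ratios of 0.92 and 0.81, and NRG1 was the member with single probe sets past 2-fold. NRG1, or neuregulin 1, a ligand of ERBB3 and ERBB4 made in many splice forms, was higher in CD90+ cells on all 4 of its measured probe sets. The one that stands for the gene, 206343_s_at, read 1778 in CD90+ and 1017 in CD90- cells, 1.75-fold. Probe set 206237_s_at read 802 against 252, the widest gap of any member at 3.18-fold. Probe set 208241_at read 743 against 370, which is 2.01-fold and only just past the threshold. The dimmest measured, 208230_s_at, read 178 against 82.2, 2.16-fold, with its CD90- signal near the floor of 71.6. Of genes with 4 or more measured probe sets, 8 of 1165 (0.687%) had at least 3 of them 2-fold higher in CD90+ cells. That comparison was chosen after the values of NRG1 were seen. The NRG1 count depends on the processing: it was 2 of 4 when the ratios were scaled to a median of 0. It was 2 of 3 with a mean signal of at least 2 times the floor required, and 1 of 3 with a floor of 397. The other 2 NRG1 probe sets were under the floor, at 60.9 against 57.9 and 43.1 against 25.6.

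The 4 measured NRG1 probe sets are annotated to different reference transcripts of the gene. That of the 3.18-fold difference is listed under NM_013957, that of the 1.75-fold difference under NM_013959, and the remaining pair under NM_004495 (2.01-fold) and NM_013960 (2.16-fold). All 4 accessions are among the current RefSeq transcripts of NRG1. Their log2 ratios of 1.67, 0.81, 1.01 and 1.11 had an SD of 0.37, against a median SD of 0.24 over the 699 genes with 4 measured probe sets. A probe set can match more transcripts than the one it is listed under, so these values do not give the level of any splice form. The mean of the 4 log2 ratios was 1.15, past 2-fold, where the representative probe set alone was not. The smallest of the 4 ratios, 0.81, was larger than the pooled SD of 0.27 for probe sets in its signal class. That SD is taken within genes and does not measure an error shared by all probe sets of a gene.

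BTC, or betacellulin, a ligand of EGFR and ERBB4, was higher in CD90+ cells on both of its probe sets. Its brighter probe set gave 418 with CD90+ and 221 with CD90- RNA, 1.89-fold. The dimmer read 114 against 57.9, at least 1.59-fold. The log2 ratios, 0.92 and 0.67, had an SD of 0.17, beside a median SD of 0.18 over the 3341 genes with 2 measured probe sets. The 0.67 is a minimum, its CD90- signal having been set to the floor. The SD of BTC therefore depends on the floor and does not gauge how well its 2 probe sets match. BTC lies on chromosome 4 with AREG, EREG and EPGN. The 50 genes nearest to BTC that reached the floor on both arrays had a median log2 ratio of 0.025.

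Of the 2 other measured ligands, both EGFR ligands, the representative probe sets were lower in CD90+ cells. HBEGF, a heparin-binding ligand of EGFR and ERBB4, read 191 in CD90+ and 306 in CD90- cells, 1.60-fold lower in CD90+. Its second measured probe set read 98.8 against 89.5, 1.10-fold higher, so the probe sets of this gene disagree in direction. Their SD of 0.58 exceeded the median of 0.18 for genes with 2 measured probe sets, and the direction for HBEGF is unsettled on these arrays. TGFA, a ligand of EGFR, read 546 in CD90+ and 703 in CD90- cells, 1.29-fold lower. Its other 2 probe sets were under the floor on both arrays, at 59.9 against 71.1 and 62.6 against 65.2, and give no direction. The 50 genes nearest to TGFA that reached the floor on both arrays had a median log2 ratio of -0.32. That is about as low as the ratio of TGFA itself (-0.36). The same median was -0.17 for EGFR, -0.0036 for ERBB2, 0.063 for ERBB3, 0.080 for HBEGF and 0.060 for NRG1. Whether chromosome position bears on any member's ratio was not tested.

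EREG, or epiregulin, was not measured. Its probe sets read 25.7 against 10.2 and 30.5 against 5.84, all under the floor, so no fold is given. The family genes outside the member list, EGF, NRG2, NRG3 and NRG4 with ERBB4, were also under the floor on both arrays. EGF came nearest to it, at 67.8 in CD90+ and 31.6 in CD90- cells. On an array, a probe set under the floor gives only an upper limit on the transcript, so these ligands were not detectable at this signal rather than absent.

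**Figure D2:**
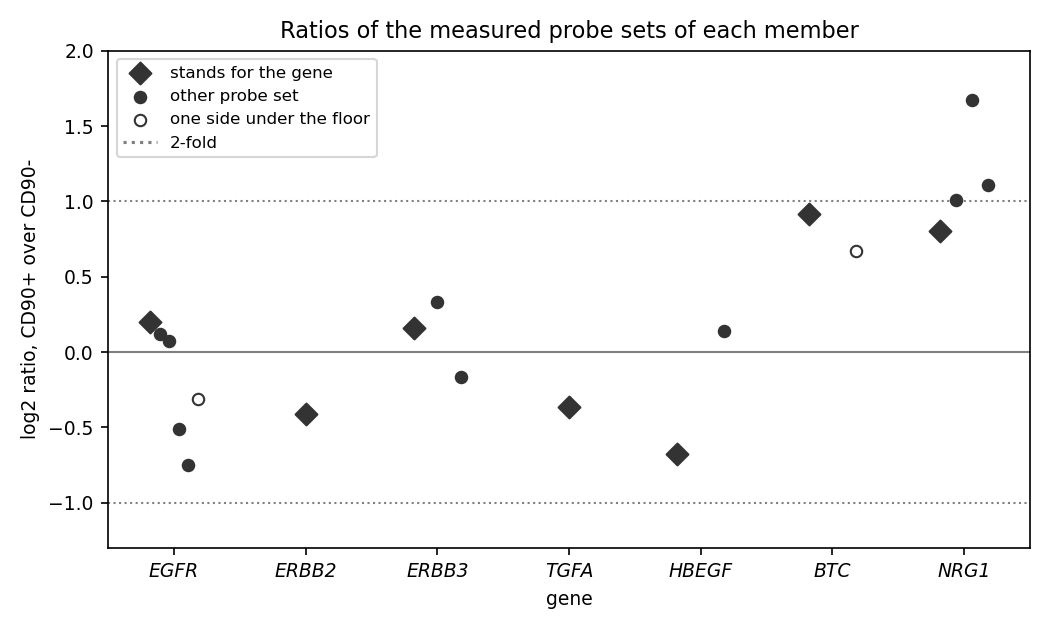
Log2 ratio, CD90+ over CD90-, of each of the 19 measured probe sets by gene; diamonds stand for the gene, circles are its other probe sets, open symbols have 1 side under the floor and dotted lines mark 2-fold. The 4 NRG1 points lie between 0.81 and 1.67 and both BTC points above 0, while the points of EGFR, ERBB3 and HBEGF fall on both sides of 0.

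**Figure D3:**
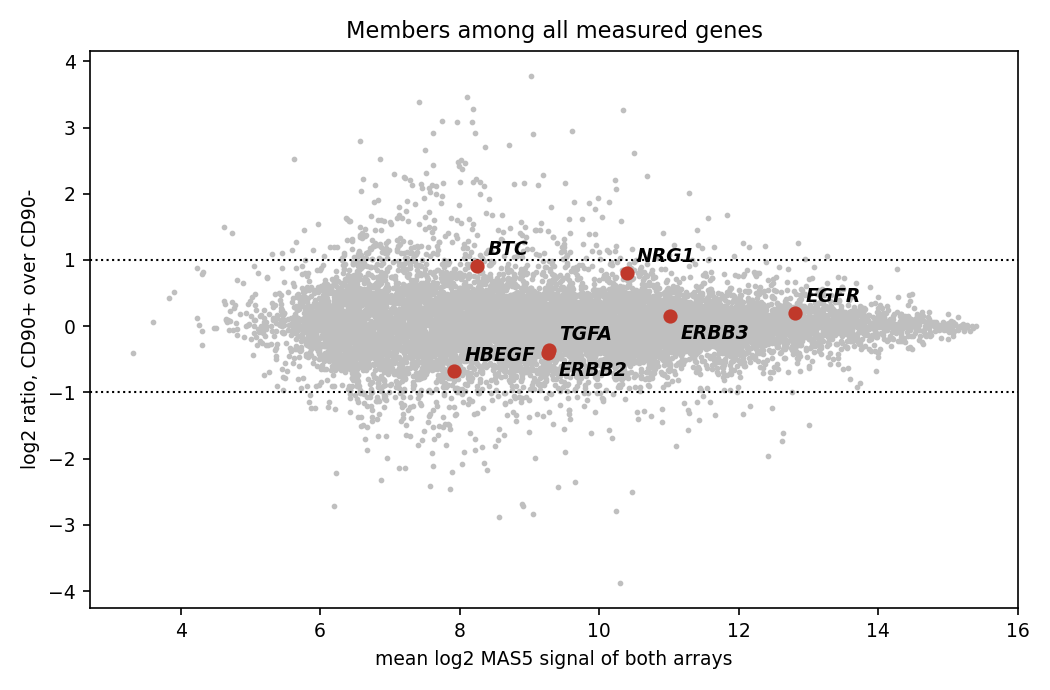
Log2 ratio, CD90+ over CD90-, against the mean log2 signal of both arrays for all 12466 measured genes (grey) and the 7 measured members (red), 1 point per gene; dotted lines mark 2-fold. The members lie inside the 2-fold lines, with BTC at 0.92 and NRG1 at 0.81 near the upper edge and EGFR at 0.20.

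Genes that release the ligands were mostly alike in both fractions. For this list and those that follow, the shares of all measured genes at least 2-fold away were 2.47% higher and 1.75% lower. Of 15 listed genes of ligand shedding 14 were measured, and 1 of these passed 2-fold, upward in CD90+ cells; the other 13 did not, and the list had a median log2 ratio of -0.0046. The 1 was TIMP3, an inhibitor of ADAM17 and of matrix metalloproteinases, at 1644 in CD90+ and 740 in CD90- cells, 2.22-fold, and all 4 of its measured probe sets were above 1. ADAM17, the main sheddase of TGFA, HBEGF and AREG, read 1701 against 2329, 1.37-fold lower in CD90+ cells, with all 3 measured probe sets below 1. ADAM10, the main sheddase of BTC and EGF, read 3733 against 4479, 1.20-fold lower, with 1 of 3 measured probe sets in that direction. BACE1, which can cleave neuregulin 1, read 864 against 599, 1.44-fold higher, with 3 of 4 measured probe sets in that direction. These last 3 were chosen after their values were seen.

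Among adaptors and kinases below the receptors, 25 of 34 listed genes had a named probe set and all 25 were measured. In CD90+ cells 0 lay 2-fold above and 1 lay 2-fold below, 24 fell inside those limits, and the median log2 ratio was -0.026. GAB2, a docking protein that carries PI3K to the receptors, was the 1, at 67.0 in CD90+ and 189 in CD90- cells, at least 2.65-fold lower on its only measured probe set. SOS1, the exchange factor that loads RAS with GTP, read 637 against 1062, 1.67-fold lower, with all 4 measured probe sets below 1. The adaptors GRB2 (2388 against 1875) and SHC1 (3705 against 2694) were 1.27-fold and 1.38-fold higher, GRB2 with 1 of 3 measured probe sets in that direction and SHC1 with both. The kinase SRC read 274 against 166, 1.65-fold higher, with 1 of its 2 measured probe sets in that direction. SOS1, GRB2, SHC1 and SRC were chosen after their values were seen, and none passed 2-fold.

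By representative probe set 0 negative regulators of the receptors passed 2-fold either way. All 28 with a named probe set were measured, with a median log2 ratio of 0.054, against 0.010 over all measured genes. Of these 16 were above 0 and 12 below. Past 1.5-fold 2 were higher and 2 lower, where the shares of all measured genes were 7.37% and 6.76%. PTPRK, a receptor phosphatase, read 6340 in CD90+ and 3741 in CD90- cells, 1.69-fold higher, with both measured probe sets in that direction. STUB1, a ubiquitin ligase, read 7303 against 7075. Of the feedback genes that ERK signalling induces, SPRY4 read 130 against 212, 1.63-fold lower, on its only measured probe set. DUSP4 read 120 against 189, 1.57-fold lower, and DUSP6 3176 against 4076, 1.28-fold lower, each with all 3 measured probe sets below 1. SPRY2 read 1793 against 2677, 1.49-fold lower, and LRIG1, a brake on ERBB receptors, 1481 against 2058, 1.39-fold lower. Each had a single measured probe set. DUSP5 went the other way at 240 against 188. SPRY1 read 307 against 278, with 1 of 2 measured probe sets in that direction. ERRFI1, which binds and blocks the EGFR kinase, read 948 against 1038. The ubiquitin ligase CBL, which tags EGFR for degradation, read 1347 against 955, 1.41-fold higher, with 3 of 5 measured probe sets in that direction. All genes of this list named after STUB1 were chosen with their values seen.

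Receptor partners and trafficking genes had 0 of 25 measured members past 2-fold either way. Their median log2 ratio was 0.16, against 0.010 over all measured genes. CAV1, or caveolin 1, read 26299 in CD90+ and 18889 in CD90- cells, 1.39-fold higher, and the tetraspanin CD9 21238 against 18398. MUC1, a membrane mucin that binds ERBB receptors, read 570 against 298, 1.91-fold higher, and its other measured probe set was higher too. CD82, a tetraspanin that binds EGFR, read 381 against 199, 1.91-fold higher, with both measured probe sets in that direction. SDC4, a heparan sulfate proteoglycan, read 2115 against 1255, 1.69-fold higher, and VPS4B, an ATPase of endosomal sorting, 1506 against 2747, 1.82-fold lower. Each had a single measured probe set. CD44, which can present HBEGF, read 11302 against 9211, 1.23-fold higher, with all 10 measured probe sets in that direction. These last 5 were chosen after their values were seen.

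Transcripts that ERBB signalling can induce had 21 measured members, of which 1 passed 2-fold upward in CD90+ cells and 0 downward, and their median log2 ratio was 0.089. EPHA2, an ephrin receptor, was the 1, at 1030 in CD90+ and 407 in CD90- cells, 2.53-fold on its only measured probe set. The AP-1 subunit FOSL1 read 286 against 161, 1.77-fold higher, on its only measured probe set. The urokinase receptor PLAUR read 616 against 354, 1.74-fold higher, with 2 of 3 measured probe sets in that direction. The cyclin CCND1 read 5561 against 3300, 1.69-fold higher. PHLDA1, another induced gene, read 6467 against 7849, 1.21-fold lower, with all 6 measured probe sets below 1. ETV5, an ETS factor, read 914 against 1282, 1.40-fold lower, with all 3 below 1. The immediate early genes FOS (101 against 98.6), EGR1 (1635 against 1486) and MYC (2367 against 2902) differed by less than 1.5-fold. CXCL8, a chemokine, was under the floor in the probe set that stands for it, while its _x_at probe set read 829 against 249. That is 3.33-fold higher and is outside the count. The genes named after EPHA2 were chosen with their values seen.

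Other receptor tyrosine kinases had 1 of 21 measured members at least 2-fold higher in CD90+ cells and 1 lower, beside 0 each way of the 3 measured ERBB receptors, with a median log2 ratio of 0.11. AXL was the higher one, at 461 against 102, 4.50-fold, on its only measured probe set. EPHA2, also a receptor tyrosine kinase, was listed with the induced transcripts and is not in this count. It was 2.53-fold higher, as given above. NTRK2, the receptor of the neurotrophin BDNF, was the lower one, at 539 against 1643, 3.05-fold, with 3 of 4 measured probe sets in that direction. With no replicate, whether ERBB receptors differ from these in how much they vary cannot be tested.

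**Figure D4:**
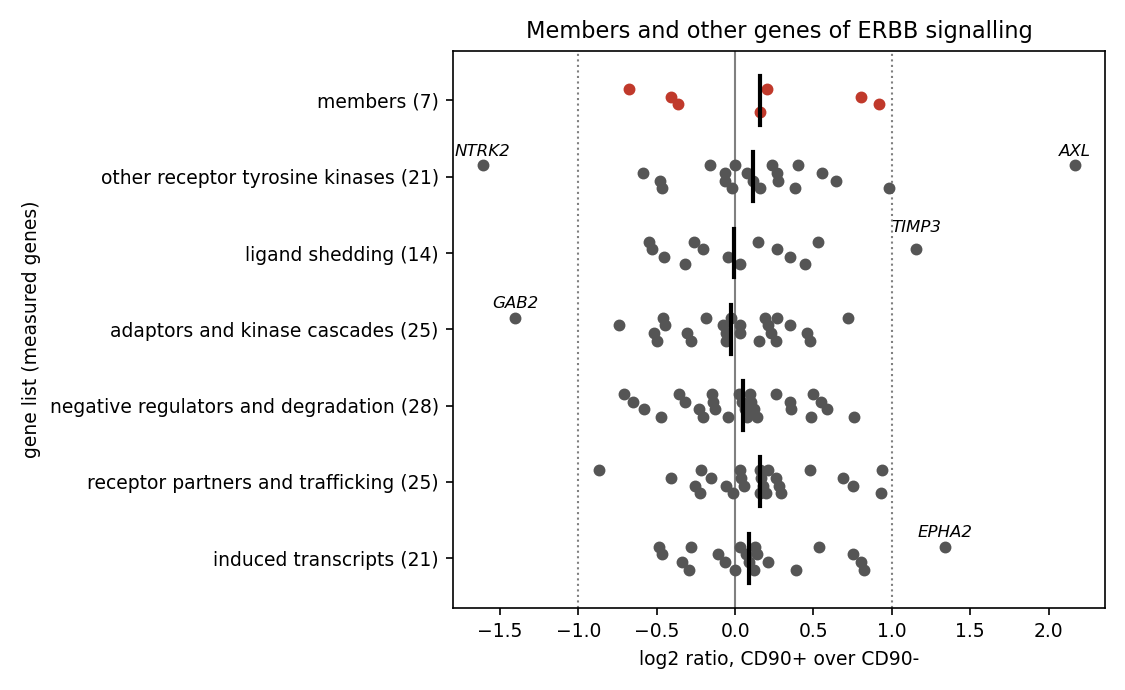
Log2 ratio, CD90+ over CD90-, of each measured gene of the members (red) and of 6 other lists (grey), 1 point per gene with a black bar at the list's median; dotted lines mark 2-fold and genes past them are named. The medians lie between -0.026 and 0.16, and AXL, NTRK2, TIMP3, GAB2 and EPHA2 are the only points past 2-fold.

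NRG1, BTC, ERBB3, ERBB2 and TGFA kept their direction in every alternative processing run that gave them a value. Several of these runs could not change a given ratio, so the counts below are not independent checks. NRG1 was above 0 in all 11 alternatives run, from 0.75 to 1.15 on the log2 scale, and past 2-fold in 2 of them. BTC was above 0 in all 11, from 0.073 to 0.94. The 0.073 came with a higher floor of 397, to which the CD90- signal was set. It is therefore a minimum and could not have fallen below 0. ERBB3 was also above 0 in all 11. ERBB2 was below 0 in all 10 that gave it a value and TGFA in all 11. EGFR turned to -0.20 when all of its measured probe sets were averaged, and HBEGF to 0.14 by its least changed probe set.

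**Figure D5:**
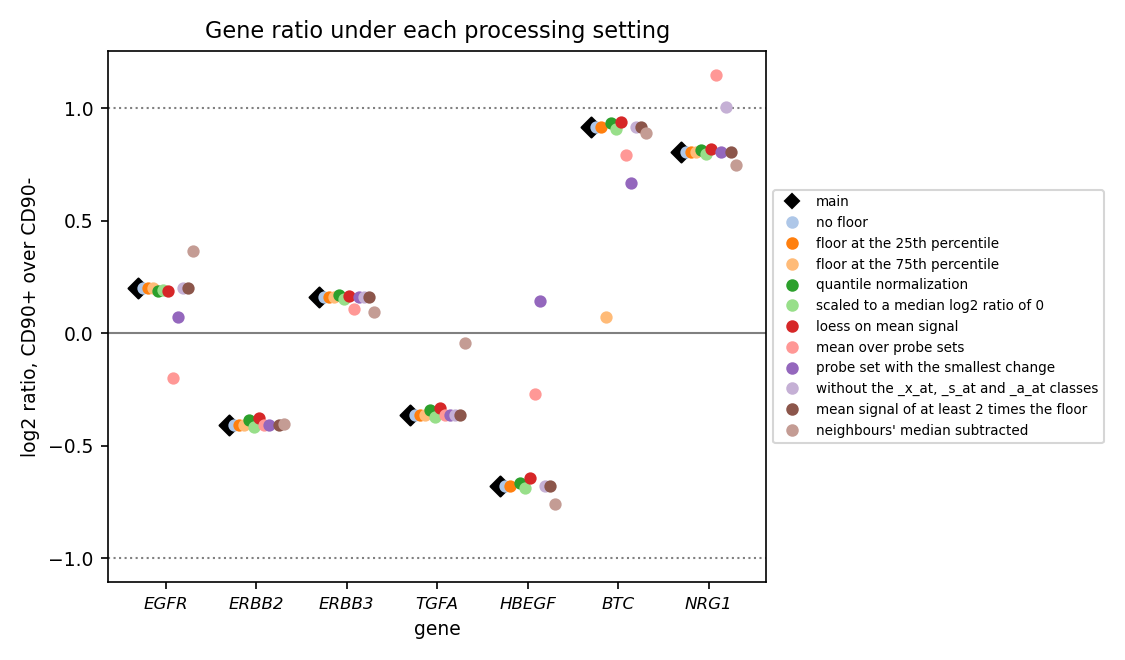
Log2 ratio, CD90+ over CD90-, of each measured member in the main setting (black diamond) and under the alternatives named in the legend (coloured points), 1 column per gene; dotted lines mark 2-fold. The points of NRG1 run from 0.75 to 1.15 and those of BTC from 0.073 to 0.94, and EGFR and HBEGF have points on both sides of 0.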

How the data were processed

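Total RNA of 1 CD90+ and 1 CD90- sample was measured on 1 array each. The authors deposited linear MAS5 signal intensities, per the submitters' processing notes; its settings are not given here. The 2 to 98% trimmed mean was equal on both, so the values had been scaled. Because MAS5 subtracts a mismatch signal, ratios near the floor are the least precise. Detection calls and scanner files were not used here.

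Probe sets with 1 symbol (41091, with 62 control probe sets left out) were named through the platform annotation, updated by gene identifier to RefSeq of GRCh38.p14; 1801 with several symbols were not named. Floor, representative probe set (an _x_at one only where a gene has no other) and 2-fold count are as given above. Groups came from the cell population label. With 1 array per population there was no test. Named genes were the members, THY1, and in each list up to 4 genes each way past 2-fold or else the 2 brightest; others are marked as chosen after their values were seen. Members and lists were chosen with earlier results of these data known. Alternatives covered the floor, the scaling, the choice of probe set, a signal filter and subtraction of the median of the 50 nearest genes. Counting was tested on simulated data, with planted changes larger than 2-fold in genes more than 4 times over the floor. Folds close to 2 or signals near the floor were not tested in this way. Tools were pandas 2.3.3, numpy 2.4.6 and statsmodels 0.14.6 under Python 3.11.15, and matplotlib 3.10.9 for the plots.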

Additional observations from a re-analysis of the deposited data

How the results depend on the processing

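All alternatives were planned, and with 1 array per population none has a test. A ratio was taken as moved if it shifted by more than 0.31, the pooled SD among probe sets of a gene. By the mean over probe sets 1 member, NRG1, was at least 2-fold higher (log2 ratio 1.15), EGFR stood at -0.20, HBEGF at -0.27 and the members' median at -0.20. Without the _x_at, _s_at and _a_at classes 1 member, again NRG1, was 2-fold higher. By the least changed probe set HBEGF stood at 0.14. With the neighbours' median subtracted TGFA stood at -0.045. With the floor at the 75th percentile (397) BTC stood at a minimum of 0.073, and 1 member probe set was 2-fold higher. With the floor at the 25th percentile (17.2) EREG had a value, 0.58, and 1 member probe set was 2-fold lower. No probe set listed a member among several symbols. In the pathway lists, 3 genes were higher and 2 lower. With the lower floor these became 7 and 4, and without the shared classes 1 and 1. The lower count was 1 with the higher floor, by the mean, with the signal filter and by the least changed probe set. Over all genes 541 were higher and 381 lower without a floor, 1122 and 835 with the lower floor, and 89 and 66 with the higher floor. By the least changed probe set 143 were lower. The cause of these shifts was not tested beyond the settings themselves. Signals near the floor limit what can be read of EREG, of the dimmer probe set of BTC and of the dim EGFR probe sets. The same holds for the dimmest measured probe set of NRG1.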
